A study of Mus musculus with 12 samples.

Results

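A set of 10 genes of iron handling and of the antioxidant programme driven by the transcription factor NRF2 were followed in synovial macrophages: *Hmox1*, *Blvrb*, *Slc40a1*, *Fth1*, *Ftl1*, *Tfrc*, *Nqo1*, *Gclm*, *Txnrd1* and *Srxn1*. They were taken by gene symbol, and all 10 of the 10 listed were found among the 26699 symbols of the count files and passed the filter on low counts. Whole synovium of C57BL/6 wild-type mice (C57BL/6J background in the study's methods) was kept as an explant for 4 h with 100 nM calcitonin gene-related peptide (CGRP), a neuropeptide released by nociceptor neurons, or with vehicle alone. MHCII+CD11c- and MHCII+CD11c+ macrophages were then sorted for bulk RNA-seq. This gave 4 groups of 3 libraries, that is 12 libraries. The control groups carried no other treatment, and the study used mice of both sexes. The methods state an age for in vivo work, while an age for the explants and any pooling of them are not given in the sources used here. Since the peptide was added to whole tissue, cells other than the sorted macrophages were exposed to it as well.

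Macrophages take in haem, the iron-carrying pigment of haemoglobin, when they clear red cells. Haem oxygenase opens its ring and frees the iron, ferritin stores that iron in a shell of heavy and light chains, ferroportin exports it, and the transferrin receptor brings new iron into the cell. Iron regulatory proteins bind hairpins called iron-responsive elements in several of these mRNAs: bound near the start of the message they block its translation, and bound after the coding region of the transferrin receptor message they protect it from decay. NRF2, held in check by KEAP1, acts at antioxidant response elements in the promoters of glutathione, thioredoxin and quinone-reducing enzymes, and also of the haem oxygenase and ferritin genes, where BACH1 competes with it as a repressor that haem inactivates.

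The hairpins of the members are shown because their place in the message, 5′ UTR or 3′ UTR, separates the ferritin and ferroportin messages from the transferrin receptor message. The letters of the loop do not separate them. The GENCODE M21 transcripts (build GRCm38) were searched for C, 5 bases, CAGTGN and 5 bases, on the transcript strand, with the flanking blocks of 5 able to pair as a stem (A with T, G with C or G with T). At least 1 match was found in 1.34% of 21877 protein-coding genes and in 4 of the 10 members, *Fth1*, *Ftl1*, *Slc40a1* and *Tfrc*. In the following lines of 27 bases, written 5′ to 3′ as DNA, the capitals mark the 6 bases of the loop.
*Fth1*, 5′ UTR, chr19:9982733-9982759, plus strand: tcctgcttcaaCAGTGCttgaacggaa
*Ftl1*, 5′ UTR, chr7:45459780-45459806, minus strand: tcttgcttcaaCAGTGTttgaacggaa
*Slc40a1*, 5′ UTR, chr1:45925466-45925492, minus strand: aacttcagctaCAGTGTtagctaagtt
*Tfrc*, 3′ UTR, chr16:32631220-32631246, plus strand: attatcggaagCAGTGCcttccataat
*Tfrc*, 3′ UTR, chr16:32631599-32631625, plus strand: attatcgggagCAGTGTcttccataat
*Tfrc*, 3′ UTR, chr16:32631664-32631690, plus strand: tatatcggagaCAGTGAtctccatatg
*Tfrc*, 3′ UTR, chr16:32631711-32631737, plus strand: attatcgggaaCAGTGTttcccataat
The 3 members with the hairpin in the 5′ UTR all rose with CGRP in both subsets, and *Tfrc*, with 4 matches in the 3′ UTR, did not pass the test in either. RNA-seq measures the level of a message and not its translation, so nothing here bears on the amount of protein.

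RefSeq promoter windows (GRCm38.p6, 250 bases before to 50 after each start) were present for 8 of the 10 members; *Hmox1* and *Slc40a1* are named only. They were searched on both strands for the antioxidant response element core TGACNNNGC or TGAGNNNGC, which was found in 27.8% of all 32851 windows and in at least 1 window of 30.8% of genes. Of the 8 members, 4 held it, and their matches before the start are printed with place and strand. The capitals mark the 9 bases of the motif, read 5′ to 3′ on the strand that holds it.
*Srxn1*, 45 bases before the start, chr2:152105471-152105495, plus strand: attcacccTGAGTCAGCggccgggc
*Srxn1*, 158 bases before the start, chr2:152105358-152105382, minus strand: agagaggaTGAGTCGGCtctcagta
*Gclm*, 134 bases before the start, chr3:122245415-122245439, minus strand: gtgagagtTGACGGTGCgcccggga
*Blvrb*, 69 bases before the start, chr7:27447901-27447925, minus strand: aaagagcaTGAGTAGGCggaggagt
*Txnrd1*, 92 bases before the start, chr10:82859106-82859130, minus strand: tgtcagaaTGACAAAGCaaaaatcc
The first *Srxn1* match overlaps the letters TGAGTCA, the core of an AP-1 site, and a further *Srxn1* match lay 28 bases after the start. A gene can have more than 1 start, and each distance counts from the start of its own window. The *Txnrd1* match lies inside the gene, before a start other than the gene's first. *Gclm* and *Blvrb* rose with CGRP in both subsets, whereas *Srxn1* and *Txnrd1* did not. The members with a window but no match were *Fth1*, *Ftl1* and *Nqo1*, which rose in both subsets, and *Tfrc*, which did not pass the test. A match describes letters in a short window and is not evidence of binding, and sites outside the windows were not searched.

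The libraries held 2127191 to 5649698 counts, and the 3 deepest were CGRP libraries. The sort marker *Itgax* averaged 6.19 CPM (counts scaled to library size, with TMM factors) in CD11c- and 237 CPM in CD11c+ control libraries, and the 8 macrophage markers summed to between 6382 and 10164 CPM in every library. With CGRP *Itgax* fell in CD11c+ cells, to 116 ± 7.33 CPM from 237 ± 29.0 (log2 -1.03 ± 0.30, adjusted p = 0.0288), and was at 5.38 CPM in CD11c- cells. *H2-Ab1*, a chain of the MHCII used in the sort, fell in both subsets (log2 -0.74 ± 0.11, adjusted p = 3.16e-04, in CD11c- and -0.66 ± 0.11, adjusted p = 5.74e-04, in CD11c+ cells). Markers of other cells varied between libraries. The 9 fibroblast markers summed to 169, 1386 and 299.9 CPM in the CD11c- control libraries, 1573, 53.0 and 101 in the CD11c- CGRP libraries, 24.5, 33.0 and 35.6 in the CD11c+ controls and 362, 389 and 80.8 in the CD11c+ CGRP libraries. In the CD11c+ subset every CGRP library was above every control library, and 2 fibroblast, 4 mural and 1 chondrocyte marker were past the threshold as higher. In the CD11c- subset 3 fibroblast markers were past it as lower. The part of these cells in the results was not tested. The counts of members called with CGRP, and of all further iron genes and all further NRF2 genes, are also given from a fit without 4 libraries. These are the libraries highest in fibroblast markers for their subset (control 2 and CGRP 1 of the CD11c- subset, CGRP 1 and 2 of the CD11c+ subset). This fit leaves 1 CD11c+ CGRP library, replicate 3, and assumes that it varies like the others. In that library the 5 mural markers summed to 151 CPM, against 2.04 to 5.61 CPM in CD11c+ controls. They summed to 298 and 4.70 CPM in the CD11c+ CGRP libraries 1 and 2 left out. The fit thus does not remove markers of other cells from the CD11c+ comparison.

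The first question was what CGRP did to these genes in each subset. In CD11c- macrophages 7 of the 10 members rose and 0 fell: *Hmox1*, *Blvrb*, *Slc40a1*, *Fth1*, *Ftl1*, *Nqo1* and *Gclm*. In CD11c+ macrophages 7 also rose and 0 fell, and they were these 7 genes. The median log2 fold change of the 10 was 0.98 in CD11c- and 0.76 in CD11c+ cells, against -0.02 and 0.00 over the 11927 genes tested. The members were chosen with earlier results of these data known, so their share is not an independent result. Over all tested genes, 5.32% were called higher and 3.89% lower in CD11c- cells, and 6.29% higher and 4.59% lower in CD11c+ cells (edgeR, Benjamini-Hochberg adjusted p under 0.05). Without the 4 libraries named, 7 members were called in CD11c- and 5 in CD11c+ cells, and the 2 lost there were *Hmox1* and *Gclm*. Beside the count of 0 lower, 2 members in CD11c- cells (*Tfrc* and *Txnrd1*) and 1 in CD11c+ cells (*Txnrd1*) were lower at an unadjusted p under 0.05. DESeq2 called 1 lower in CD11c- cells (*Txnrd1*) and 0 in CD11c+ cells, and limma-voom called 0 in both.

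**Figure D1:**
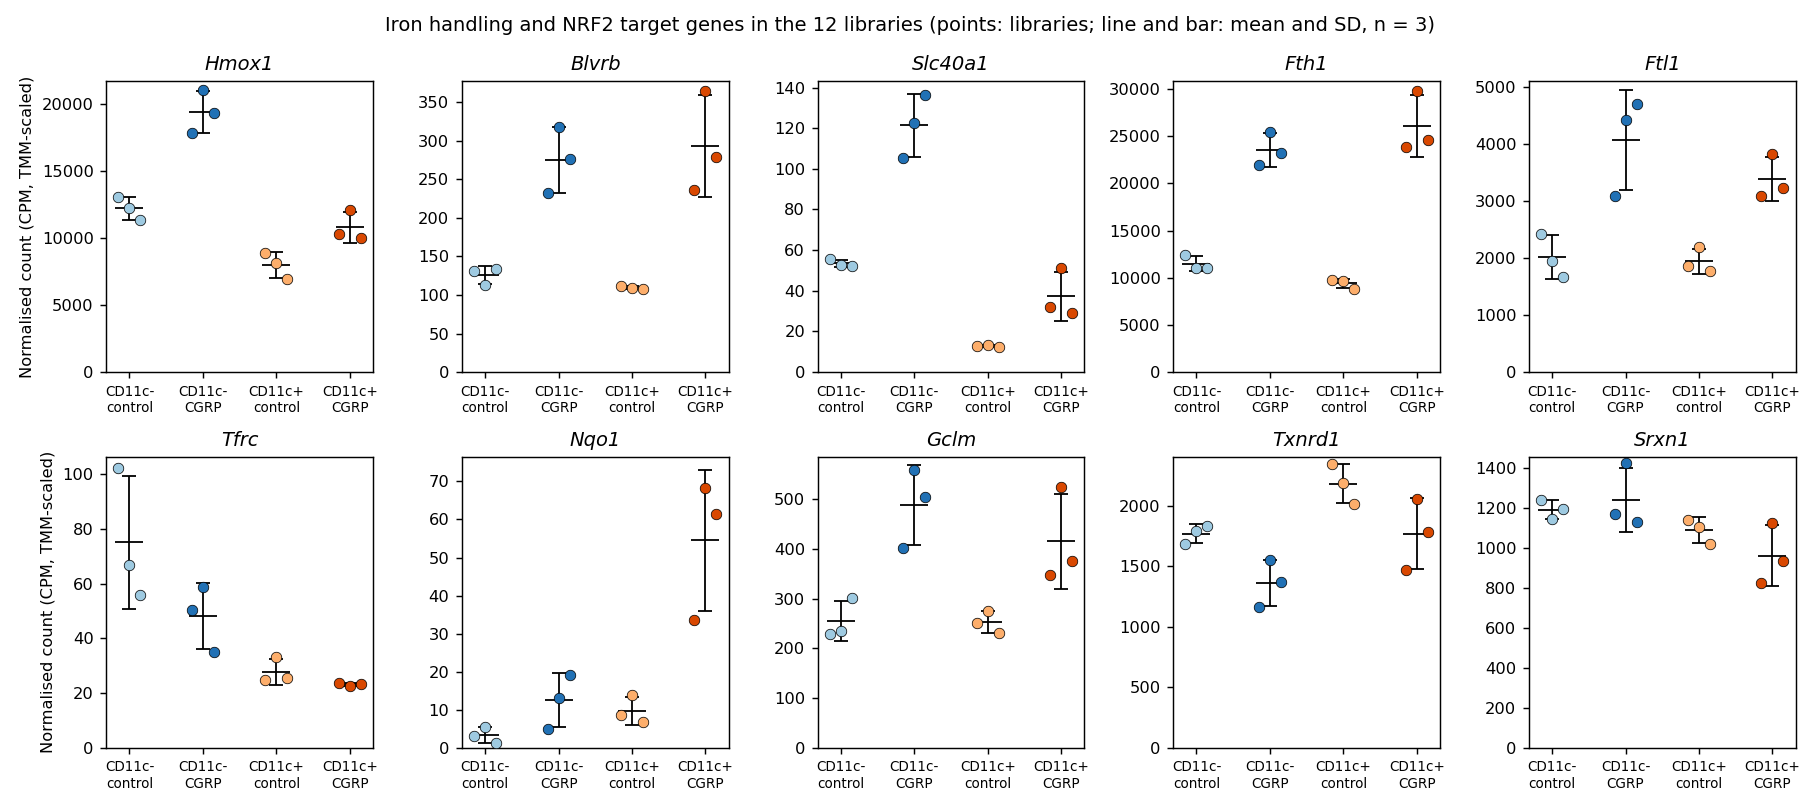
Normalised count (CPM, TMM-scaled, linear axes from 0) of the 10 genes in each library, by subset and treatment; points are libraries, and the line and bar are the mean and SD of 3. For *Hmox1*, *Blvrb*, *Slc40a1*, *Fth1*, *Ftl1* and *Gclm* every CGRP library lies above every control library of its subset, whereas *Nqo1* overlaps in CD11c- cells and *Srxn1* overlaps in both subsets.

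*Hmox1*, haem oxygenase 1 (chromosome 8, 75093621 to 75100589, plus strand, GRCm38, as are all gene positions given), is the inducible enzyme that breaks haem into biliverdin, carbon monoxide and iron. In CD11c- macrophages it stood at 13069.8, 12286 and 11364 CPM in the control libraries and at 17873, 21051 and 19373 CPM after CGRP (replicates 1 to 3). In CD11c+ macrophages it stood at 8878, 8166 and 6991 CPM in controls and at 10302, 12127 and 10029 CPM after CGRP. The groups did not overlap in either subset, and the CD11c+ libraries after CGRP overlapped with the CD11c- controls. The log2 fold change was 0.67 ± 0.11 (SE, n = 3 per group, adjusted p = 6.97e-04) in CD11c- and 0.43 ± 0.11 (adjusted p = 0.0167) in CD11c+ cells. The CD11c+ call was lost without control library 2, control library 3 or CGRP library 2 (adjusted p = 0.0582, 0.125 and 0.0833) and without the 4 libraries named (0.30, adjusted p = 0.435).

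*Blvrb* (chromosome 7, 27447978 to 27466144, plus strand) encodes biliverdin reductase B, an NADPH-dependent enzyme that reduces flavins and some forms of biliverdin. *Blvra*, which encodes biliverdin reductase A, is not a member and is named here after its values were seen. It did not pass the test in CD11c- or CD11c+ cells (log2 -0.33 and -0.5, adjusted p = 0.62 and 0.424). The control levels of *Blvrb* were 131, 113 and 134 CPM in CD11c- and 112, 109 and 108 CPM in CD11c+ cells. After CGRP they were 232, 318 and 277 CPM in CD11c- and 236, 365 and 279.7 CPM in CD11c+ cells. All 6 CGRP libraries thus lay above all 6 control libraries, and the subsets overlapped after CGRP. The log2 fold change was 1.13 ± 0.16 (adjusted p = 1.26e-04) in CD11c- and 1.42 ± 0.16 (adjusted p = 7.49e-06) in CD11c+ macrophages.

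Ferritin is built from a heavy and a light chain. *Fth1* (chromosome 19, 9980598 to 9985098, plus strand), the heavy chain with ferroxidase activity, was at 12384, 11089 and 10986 CPM in CD11c- controls and 21927, 25464 and 23242 CPM after CGRP. In CD11c+ cells it went from 9732, 9669 and 8813 CPM to 23828, 29819 and 24628 CPM. The separation between control and CGRP libraries was wider than for *Hmox1*, with log2 fold changes of 1.04 ± 0.11 (adjusted p = 4.76e-06) in CD11c- and 1.47 ± 0.11 (adjusted p = 1.5e-07) in CD11c+ cells.

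*Ftl1* (chromosome 7, 45457944 to 45459884, minus strand), the light chain that supports iron core formation, was at 2428, 1950.1 and 1664 CPM in CD11c- controls and at 3079, 4424 and 4705 CPM after CGRP. In CD11c+ cells the control libraries were at 1855, 2196 and 1779 CPM and the CGRP libraries at 3086, 3828 and 3237 CPM. Control and CGRP libraries did not overlap, and the CD11c- libraries spread more widely than those of *Fth1*. The log2 fold changes were 1.01 ± 0.16 (adjusted p = 3.8e-04) in CD11c- and 0.80 ± 0.16 (adjusted p = 0.00208) in CD11c+ macrophages. Of the 50-base words in the annotated *Ftl1* transcripts, 58.4% also occur in transcripts of other genes, most of them in *Ftl1-ps1*, so reads could be split among these copies. For *Fth1* the share was 1.6%.

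The ferritin copies in the count files behaved as follows. *Ftl1-ps1* rose by 1.01 ± 0.16 (log2, adjusted p = 3.29e-04) in CD11c- and 1.11 ± 0.16 (adjusted p = 7.27e-05) in CD11c+ cells, and *Ftl2-ps* by 1.10 ± 0.30 (adjusted p = 0.0254) and 0.96 ± 0.30 (adjusted p = 0.045), with overlapping CD11c+ libraries. *Ftl1* held 19.95 to 28.07 times the counts of *Ftl1-ps1* in every library. In CD11c+ cells the range was 22.48 to 28.07 in controls and 19.95 to 21.48 after CGRP, without overlap. In CD11c- cells it was 20.54 to 25.17 and 21.59 to 24.32, which overlap. These rows may hold reads of *Ftl1* and are uncertain as separate genes. *Fth-ps2*, *Fth1-ps* and *Ftl1-ps2* had at most 11 counts in any library and were not tested.

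Since *Fth1* and *Ftl1* form 1 shell together, their levels per kilobase of annotated exon were set against each other in each library. The heavy to light ratio was 1.97, 2.20 and 2.55 in CD11c- controls and 2.75, 2.22 and 1.91 after CGRP, which overlap. In CD11c+ cells it was 2.03, 1.70 and 1.91 in controls and 2.98, 3.01 and 2.94 after CGRP, with no overlap. The exact two-sided permutation test gave p = 0.9 in CD11c- and p = 0.1 in CD11c+ cells, and 0.1 is the smallest p that 3 libraries against 3 allow. The reads that *Ftl1* shares with its copies enter the ratio in each library. Its size also depends on the length used. In CD11c- controls *Fth1* and *Ftl1* averaged 3311 and 1503 CPM per kb of exon, but 7688 and 2081 CPM per kb of the longest coding transcript.

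**Figure D2:**
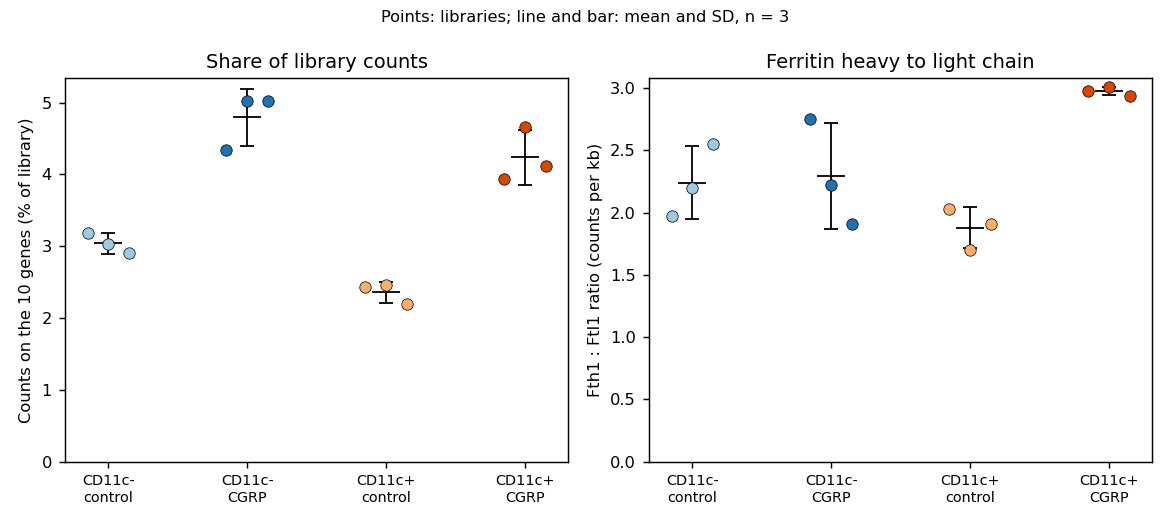
Left, percentage of each library's counts on the 10 genes; right, *Fth1* to *Ftl1* ratio in counts per kilobase; points are libraries, and the line and bar are the mean and SD of 3. The 10 genes took 2.19% to 3.19% of counts in control and 3.93% to 5.02% in CGRP libraries, and the ratio stood at 2.94 to 3.01 in CD11c+ CGRP libraries against at most 2.75 elsewhere.

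*Slc40a1* (chromosome 1, 45908068 to 45926523, minus strand) encodes ferroportin, the only known iron exporter of mammalian cells. In CD11c- macrophages it was at 55.5, 52.5 and 52.4 CPM in controls and 105, 123 and 136 CPM after CGRP. In CD11c+ macrophages it was at 12.7, 13.1 and 12.2 CPM in controls, from 31 to 57 counts a library, and at 31.8, 51.2 and 29.0 CPM after CGRP. The 4 groups were thus ordered without any overlap, with even the highest CD11c+ CGRP library below the lowest CD11c- control. The log2 fold change was 1.18 ± 0.19 (adjusted p = 4.9e-04) in CD11c- and 1.55 ± 0.22 (adjusted p = 6.48e-05) in CD11c+ cells.

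*Tfrc* (chromosome 16, 32608920 to 32632794, plus strand), the transferrin receptor, was at 102, 66.8 and 56.0 CPM in CD11c- controls and at 50.3, 58.8 and 35.1 CPM after CGRP. In CD11c+ cells it was at 24.9, 33.2 and 25.3 CPM in controls and at 23.8, 22.5 and 23.1 CPM after CGRP. The CD11c- libraries overlapped, whereas in CD11c+ cells every CGRP library lay below every control library, the nearest pair at 23.8 and 24.9 CPM. The log2 difference was -0.65 ± 0.23 (adjusted p = 0.0858) in CD11c- and -0.27 ± 0.24 (adjusted p = 0.586) in CD11c+ macrophages, so neither passed the test. The CD11c- value passed when 10 counts were asked of a gene in each library (adjusted p = 0.0488) and without control library 3 (adjusted p = 0.0461).

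Red cell material bears on several of these genes, because erythroid cells carry *Tfrc* and much ferritin. The 8 erythroid markers in the files summed to 10.3 to 79.4 CPM in CD11c- controls, 25.5 to 129 CPM in CD11c- CGRP, 0.408 to 38.4 CPM in CD11c+ control and 24.4 to 46.2 CPM in CD11c+ CGRP libraries. These ranges overlapped within each subset, 0 of the 5 erythroid markers that could be tested were called in either subset by edgeR, DESeq2 or limma-voom, and 0 had an unadjusted p under 0.05 in edgeR. Their part in the results was not tested.

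Among the NRF2 targets, *Nqo1* (chromosome 8, 107388225 to 107403206, minus strand), the quinone reductase often read as an index of NRF2 activity, had the largest fold change of the 10 in both subsets, from few counts. In CD11c- controls it had 10, 19 and 3 counts (3.10, 5.45 and 1.34 CPM), and after CGRP 19, 54 and 102 counts (5.03, 13.1 and 19.2 CPM). In CD11c+ controls it had 21, 59 and 31 counts (8.57, 13.8 and 6.65 CPM), and after CGRP 175, 276 and 346 counts (33.6, 68.3 and 61.6 CPM). The CD11c- libraries overlapped, whereas each CD11c+ CGRP library lay above every other library in the study. The log2 fold change was 1.85 ± 0.50 (adjusted p = 0.0226) in CD11c- and 2.48 ± 0.42 (adjusted p = 5.4e-04) in CD11c+ cells. The CD11c- call was lost with limma-voom (adjusted p = 0.311) and without control library 1 or 3 or CGRP library 2 or 3 (adjusted p = 0.0854, 0.0811, 0.0602 and 0.136), but it held without the 4 libraries named (2.82, adjusted p = 0.00178).

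*Gclm* (chromosome 3, 122245557 to 122270732, plus strand) encodes the modifier subunit of glutamate-cysteine ligase, which starts glutathione synthesis. It was at 228, 236 and 300.4 CPM in CD11c- controls and at 402, 558 and 505 CPM after CGRP. In CD11c+ cells it was at 251, 275 and 231 CPM in controls and at 347, 525 and 375 CPM after CGRP. Neither subset overlapped, and CGRP library 2 was the highest in each. The log2 fold change was 0.94 ± 0.17 (adjusted p = 9.21e-04) in CD11c- and 0.72 ± 0.16 (adjusted p = 0.00625) in CD11c+ cells, where it was lost without CGRP library 2 (0.52, adjusted p = 0.055) and without the 4 libraries named (0.55, adjusted p = 0.161).

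The remaining NRF2 targets did not rise. *Txnrd1* (chromosome 10, 82833951 to 82897712, plus strand), cytosolic thioredoxin reductase, was at 1684, 1790.4 and 1829.9 CPM in CD11c- controls and at 1164, 1548 and 1367 CPM after CGRP. In CD11c+ cells it was at 2342, 2185 and 2015 CPM in controls and at 1468, 2051 and 1782 CPM after CGRP. All CD11c- CGRP libraries lay below their controls, while the CD11c+ libraries overlapped. The log2 differences were -0.38 ± 0.13 (adjusted p = 0.0825) and -0.30 ± 0.13 (adjusted p = 0.17), neither past the threshold. In CD11c- cells it was past the threshold with DESeq2 (adjusted p = 0.0339), with upper-quartile scaling (0.0391), with 10 counts asked of a gene in each library (0.0475) and with a replicate block (0.0405).

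*Srxn1* (chromosome 2, 152105516 to 152111376, plus strand), sulfiredoxin, which repairs overoxidised peroxiredoxins, was at 1242, 1143 and 1194 CPM in CD11c- controls and at 1169, 1426 and 1130.2 CPM after CGRP. In CD11c+ cells it was at 1143, 1107 and 1018 CPM in controls and at 825, 1128 and 934 CPM after CGRP. Both subsets overlapped, and the log2 differences were 0.06 ± 0.13 (adjusted p = 0.85) and -0.18 ± 0.13 (adjusted p = 0.466).

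**Figure D3:**
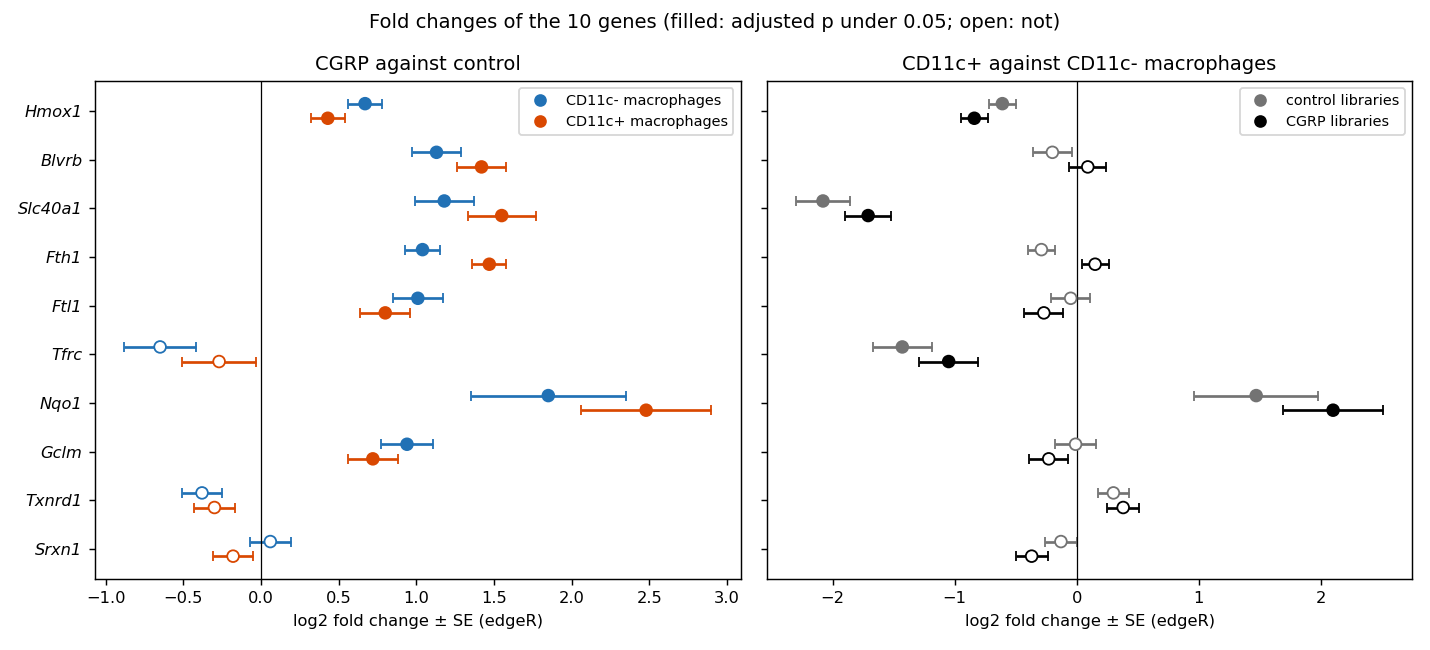
Log2 fold change ± SE (edgeR) of the 10 genes, with CGRP against control in each subset on the left and CD11c+ against CD11c- macrophages in control and in CGRP libraries on the right; filled points have an adjusted p under 0.05. On the left 7 genes are filled in both subsets, all above 0; on the right *Hmox1*, *Slc40a1* and *Tfrc* are filled below 0 and *Nqo1* above 0 in both sets of libraries.

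The next question was whether CGRP acted to a different degree in the 2 subsets. No member had a subset-by-CGRP interaction past the threshold in edgeR, where 0.151% of all tested genes were called. DESeq2, limma-voom and the fit without the 4 libraries named also called 0, and 1 member, *Fth1*, had an unadjusted p under 0.05. Its change was larger in CD11c+ than in CD11c- cells by 0.44 ± 0.15 on the log2 scale (adjusted p = 0.357), and by 0.27 (adjusted p = 0.935) without the 4 libraries named. For *Nqo1* the difference was 0.63 ± 0.67 (adjusted p = 0.876), an error that leaves room for a change in either direction. For *Hmox1* it was -0.23 ± 0.16 (adjusted p = 0.761) and for *Slc40a1* 0.37 ± 0.29 (adjusted p = 0.8). These values do not show that the subsets responded alike.

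The subsets were then compared at matched treatment. Among control libraries 3 members, *Hmox1*, *Slc40a1* and *Tfrc*, were lower in CD11c+ than in CD11c- macrophages and 1, *Nqo1*, was higher, against 10.9% of all tested genes called lower and 10.2% higher. Among CGRP libraries these 3 genes were again lower and *Nqo1* again higher, against 8.51% and 8.36% of all tested genes. The median log2 difference of the 10 was -0.17 in control and -0.25 in CGRP libraries, against -0.02 and 0.00 over all genes. Without the 4 libraries named, the log2 differences in controls were -0.54 for *Hmox1*, -2.02 for *Slc40a1*, -1.44 for *Tfrc* and 2.12 for *Nqo1*. Among CGRP libraries, with 1 CD11c+ library left, they were -1, -2.15, -1 and 1.93.

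Markers of several cell types moved with the subset. Of the 8 macrophage markers, 5 were lower in CD11c+ than in CD11c- controls and 4 after CGRP, although the summed level of the list was 7598 to 9742 CPM in CD11c- and 7965 to 10164 CPM in CD11c+ controls, and 8341 to 8934 against 6382 to 7445 CPM after CGRP. *Csf1r*, the receptor for macrophage colony-stimulating factor, averaged 1439 ± 145 CPM in CD11c- and 595 ± 67.3 CPM in CD11c+ controls, and *Cd68*, a lysosomal protein, 688 ± 30.5 and 339 ± 36.0 CPM. *Mertk*, a receptor for dying cells, averaged 43.2 ± 13.99 and 11.6 ± 3.53 CPM, while *Lyz2* and *Cd14*, the most abundant of the list in CD11c+ controls, were not called. The 6 lining macrophage markers summed to 595 to 794 CPM in CD11c- and 269 to 350 CPM in CD11c+ controls (4 lower, 1 higher), and to 579 to 736 against 240 to 422 CPM after CGRP (3 lower, 1 higher). The 7 dendritic cell markers summed to 108 to 173 and 634 to 696 CPM in controls (4 higher), and to 89.2 to 116 and 671 to 774 CPM after CGRP (3 higher). The 5 B cell markers summed to 53.7 to 111 and 7.94 to 13.1 CPM in controls (4 lower), and to 21.97 to 42.1 and 1.42 to 5.56 CPM after CGRP (5 lower). Of the 9 fibroblast markers 5 were lower in CD11c+ controls and 1 was higher after CGRP. The part of these cells in the differences between subsets was not tested.

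*Slc40a1* had the largest difference of the 10 among control libraries, and among CGRP libraries *Nqo1* did. The log2 difference of *Slc40a1*, CD11c+ against CD11c- cells, was -2.08 ± 0.22 in controls (adjusted p = 1.52e-06) and -1.71 ± 0.19 after CGRP (adjusted p = 3.8e-06). *Tfrc* had log2 differences of -1.43 ± 0.24 (adjusted p = 2.12e-04) and -1.05 ± 0.24 (adjusted p = 0.0035), the second of which was -1 (adjusted p = 0.177) without the 4 libraries named. *Hmox1* had log2 differences of -0.61 ± 0.11 (adjusted p = 6.35e-04) and -0.84 ± 0.11 (adjusted p = 2.5e-05). In these 3 genes the libraries of the subsets did not overlap at either treatment. The same held for *Nqo1*, in the other direction, and for *Srxn1*, which was lower in CD11c+ cells but not called. The share of all tested genes whose libraries separate in this way was not counted for any comparison. In bulk samples, fewer cells of a type in the sort and less RNA per cell cannot be told apart.

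*Nqo1* was higher in CD11c+ cells, by 1.47 ± 0.51 (log2, adjusted p = 0.0474) in controls and 2.10 ± 0.41 (adjusted p = 0.00105) after CGRP. The control call was lost with limma-voom (adjusted p = 0.296), with the compared libraries alone (0.0711) and without any of 5 libraries (adjusted p from 0.0571 to 0.181), which are CD11c- control 1 and 3, CD11c+ control 1 and 2 and CD11c- CGRP 2. *Fth1* was slightly lower in CD11c+ controls, with no overlap (log2 difference -0.29 ± 0.11, adjusted p = 0.0615), and the groups overlapped after CGRP (0.15 ± 0.11, adjusted p = 0.413). *Blvrb*, *Ftl1* and *Gclm* had log2 differences between -0.27 and 0.09 at both treatments, none past the threshold.

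*Txnrd1* and *Srxn1* lay near the threshold between subsets after CGRP, in opposite directions. *Txnrd1* had a log2 difference of 0.38 ± 0.13 (adjusted p = 0.0559) and *Srxn1* of -0.37 ± 0.13 (adjusted p = 0.0549). With the subsets paired by treatment and replicate number, a replicate block that the libraries' own deviations allowed for the CGRP groups, both passed (adjusted p = 0.00679 and 0.00783). That fit paired the control libraries by number as well, where the deviations did not allow it. The replicate number alone as a block gave 0.0299 and 0.0333.

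Set against each other per kilobase of annotated exon, the members covered a wide range. In CD11c- controls the mean levels were 6990 ± 488 CPM per kb (SD, n = 3) for *Hmox1*, 3311 ± 225 for *Fth1*, 1503 ± 288 for *Ftl1*, 423 ± 17.5 for *Srxn1* and 249.5 ± 10.7 for *Txnrd1*. *Blvrb* and *Gclm* followed at 45.3 ± 4.06 and 40.5 ± 6.30 CPM per kb, which overlap within their spread. *Tfrc* at 12.1 ± 3.93, *Slc40a1* at 5.94 ± 0.20 and *Nqo1* at 2.12 ± 1.33 CPM per kb were lowest. In CD11c+ cells *Nqo1* was above *Tfrc* and *Slc40a1*, at 6.23 ± 2.38 against 4.50 ± 0.757 and 1.41 ± 0.048 CPM per kb in controls, where the first pair overlap within their spread, and at 35.1 ± 11.9 against 3.74 ± 0.102 and 4.15 ± 1.35 CPM per kb after CGRP. The order of *Hmox1* and *Fth1* depends on the length used. In CD11c+ controls *Hmox1* was at 4576 and *Fth1* at 2711 CPM per kb of exon, but at 5106 and 6295 CPM per kb of the longest coding transcript. In CD11c- libraries after CGRP they were at 11100 and 6787 CPM per kb of exon and at 12390 and 15760 CPM per kb of the longest transcript. Other neighbours in the order of CD11c- controls also changed with it, since per kb of the longest transcript *Txnrd1* was at 488 and *Srxn1* at 424 CPM, *Slc40a1* at 15.9 and *Tfrc* at 15.4 CPM, and *Blvrb*, at 122.7 CPM, stood apart from *Gclm* at 45.6 CPM.

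The genes with the pattern most like that of *Hmox1* over the 12 libraries, by the root mean square difference of centred log2 CPM among 8371 genes, were *Scpep1* (0.117), *mt-Nd5* (0.141) and *Cd164* (0.160), where *Hmox1* itself had an SD of 0.496. For *Slc40a1*, with an SD of 1.22, they were *Ccl3* (0.297), *Ms4a6d* (0.321) and *Ednrb* (0.329). *Ms4a6d*, for one, averaged 151 ± 4.51 and 345 ± 3.39 CPM in CD11c- control and CGRP libraries and 45.4 ± 3.25 and 151 ± 9.85 CPM in the CD11c+ groups.

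Other genes of the same pathways were counted from 7 lists that do not hold the members. These lists too were chosen with earlier results of these data known. Of 47 further iron and haem genes, 39 were tested. In CD11c- cells 2 rose, 2 fell and 35 did not pass the test, with a median log2 difference of -0.18, and in CD11c+ cells 4 rose, 4 fell and 31 did not pass, with a median of -0.14. These are 5.13% of the 39 in each direction in CD11c- cells, near the background of 5.32% higher and 3.89% lower, and 10.3% in each direction in CD11c+ cells, against 6.29% and 4.59%. Without the 4 libraries named, 2 rose and 1 fell in each subset. The CD11c+ count of 8 called became 5 without CGRP library 3, and the CD11c- count of 4 became 7 with DESeq2 and with 10 counts asked of a gene in each library. Of 69 further NRF2 pathway genes, 58 were tested. In CD11c- cells 17 rose, 3 fell and 38 did not pass (median 0.16), and in CD11c+ cells 17 rose, 6 fell and 35 did not pass (median 0.18). The share that rose was 29.3% in both subsets, and the share that fell 5.17% and 10.3%, against the same backgrounds. Without the 4 libraries named, when 63 of them were tested, 16 rose and 2 fell in CD11c- cells, and 13 rose and 1 fell in CD11c+ cells, against 3.33% of all genes higher and 1.94% lower and then 2.03% and 1.32%. The medians over all tested genes were -0.02 and 0.00. No listed gene had an interaction past the threshold in edgeR, DESeq2 or limma-voom, and 15 had an unadjusted p under 0.05 in edgeR. The counts, shares and calls given below, list by list, come from the fit with all libraries. Which of them would hold without the 4 libraries named is not given. In CD11c+ cells fewer genes were called there in every list, and fewer over all tested genes, so the CD11c+ shares below carry this limit.

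**Figure D4:**
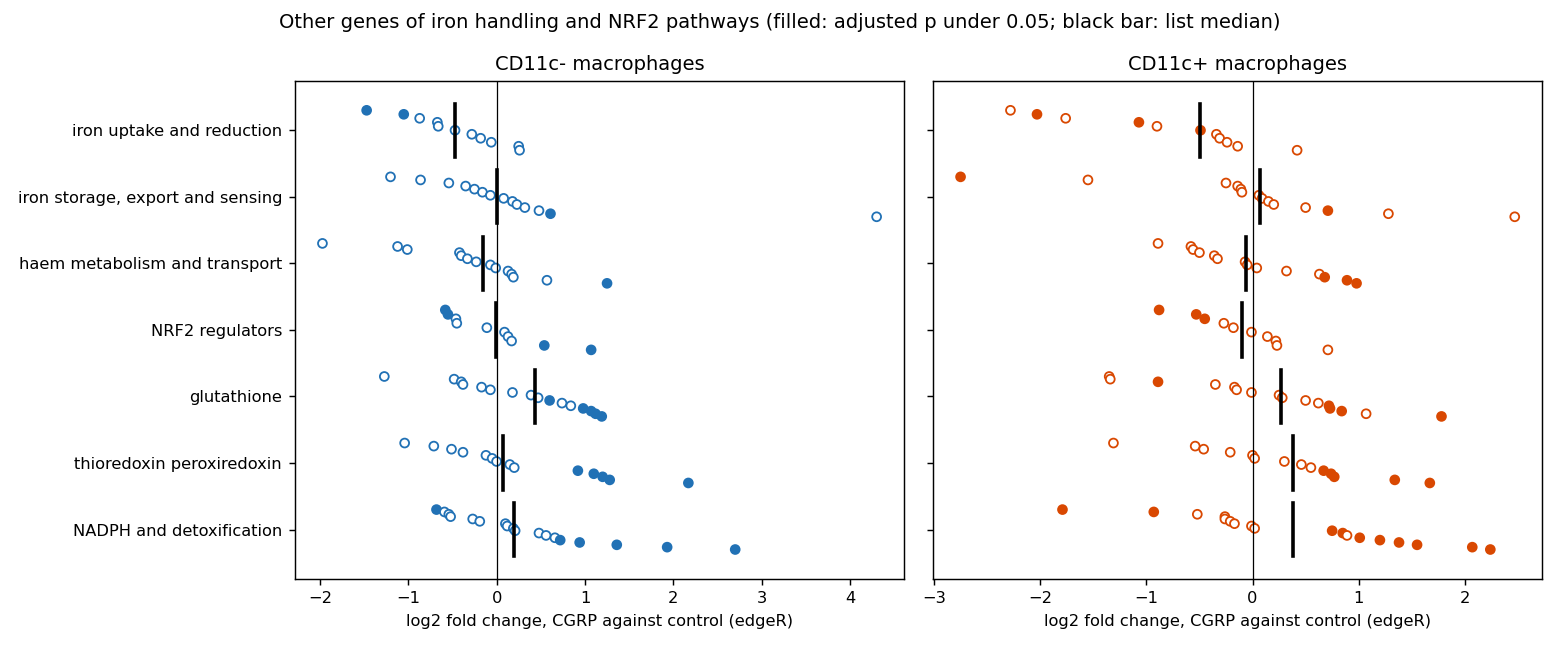
Log2 fold change with CGRP (edgeR) of each tested gene in 7 lists that exclude the 10 members, in CD11c- (left) and CD11c+ (right) macrophages; filled points have an adjusted p under 0.05 and the black bar is the list's median. Filled points on the right of 0 are most frequent in the glutathione, thioredoxin and NADPH lists, and both iron uptake medians lie to the left, at -0.47 and -0.49.

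On the uptake side, 2 of 11 tested genes fell in CD11c- and 3 in CD11c+ cells, and the others did not pass the test. The shares were 18.2% and 27.3%, against 3.89% and 4.59% of all tested genes called lower. *Cd163*, the scavenger receptor for haemoglobin bound to haptoglobin, averaged 1203 ± 336 CPM in CD11c- controls and 583 ± 132 CPM after CGRP, and 412 ± 60.9 and 196 ± 31.6 CPM in CD11c+ cells. It fell in both, with log2 fold changes of -1.05 ± 0.19 (adjusted p = 0.00122) and -1.07 ± 0.19 (adjusted p = 9.25e-04). *Steap4*, a metalloreductase, fell in CD11c- cells (-1.47 ± 0.39, adjusted p = 0.0195), from 21.8 ± 2.30 to 7.84 ± 1.73 CPM. In CD11c+ cells, at 3.90 ± 2.32 CPM in controls, it had a log2 difference of 0.42 ± 0.43 (adjusted p = 0.643). *Trf*, transferrin, fell in CD11c+ cells (-2.03 ± 0.56, adjusted p = 0.023), from 9.41 ± 2.06 to 2.28 ± 1.11 CPM. *Slc11a2*, the transporter DMT1, fell in CD11c+ cells (-0.49 ± 0.15, adjusted p = 0.0464) and had a like value in CD11c- cells that missed the threshold (-0.47 ± 0.15, adjusted p = 0.0543).

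Among 14 tested genes of iron storage, export and sensing, 1 rose in each subset and 1 fell in CD11c+ cells. With 1 gene equal to 7.14% of the list, these counts are near the shares over all tested genes. Those were 5.32% higher in CD11c- cells, and 6.29% higher and 4.59% lower in CD11c+ cells. The one that rose was *Slc11a1*, which encodes the metal transporter NRAMP1, whose protein and activity were not measured here. *Slc11a1* averaged 404 ± 68.1 and 617 ± 81.3 CPM in CD11c- control and CGRP libraries, and 342 ± 6.26 and 557 ± 70.5 CPM in CD11c+ libraries (log2 0.61 ± 0.14, adjusted p = 0.00812, and 0.71 ± 0.14, adjusted p = 0.00212). The one that fell, named like those that complete the counts of the lists below after its values were seen, was *Hamp*, which encodes the ferroportin ligand hepcidin, at a mean of 3.17 CPM over the 12 libraries (log2 -2.75 in CD11c+ cells, adjusted p = 0.0256). The iron regulatory proteins that bind the hairpins shown earlier did not pass the test. *Ireb2* had log2 differences of -0.07 ± 0.20 and -0.10 ± 0.20, and *Aco1* of -0.54 ± 0.23 (adjusted p = 0.173) and -0.25 ± 0.24.

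Of 14 tested genes of haem metabolism, 1 rose in CD11c- and 3 in CD11c+ cells, and the others did not pass the test. The shares were 7.14% and 21.4%, against 5.32% and 6.29% of all tested genes called higher. *Slc48a1*, which carries haem out of the phagolysosome, rose from 172 ± 11.7 to 409 ± 48.8 CPM in CD11c- cells (log2 1.25 ± 0.15, adjusted p = 1.87e-05) and from 258 ± 34.9 to 413 ± 69.5 CPM in CD11c+ cells (0.68 ± 0.15, adjusted p = 0.00372). *Hmox2*, the constitutive haem oxygenase, rose in CD11c+ cells (0.98 ± 0.19, adjusted p = 0.00143) and had a log2 difference of 0.57 ± 0.18 in CD11c- cells (adjusted p = 0.0596). *Alas1*, which starts haem synthesis, rose in CD11c+ cells (0.89 ± 0.21, adjusted p = 0.00641) and was at -0.01 ± 0.21 in CD11c- cells.

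The regulators of the pathway moved in both directions, with 2 of 10 called higher and 2 lower in CD11c- cells, and 3 called lower in CD11c+ cells. In CD11c- cells this is 20% in each direction, against 5.32% higher and 3.89% lower over all tested genes. In CD11c+ cells it is 30% lower, against 4.59%. *Nfe2l2*, which encodes NRF2, fell in CD11c- cells from 390.2 ± 40.6 to 267 ± 18.5 CPM (log2 -0.55 ± 0.12, adjusted p = 0.0071) and was at 456 ± 28.9 and 402 ± 40.1 CPM in CD11c+ cells (-0.18 ± 0.12, adjusted p = 0.436). *Keap1*, the adaptor that targets NRF2 for degradation, rose in CD11c- cells (1.07 ± 0.25, adjusted p = 0.00913), from 15.3 ± 0.176 to 32.3 ± 6.10 CPM. In CD11c+ cells it had a log2 difference of 0.71 ± 0.24 (adjusted p = 0.0661). *Bach1*, the haem-sensitive repressor, fell in CD11c+ cells (-0.88 ± 0.14, adjusted p = 3.23e-04) and had a difference of -0.45 ± 0.14 in CD11c- cells (adjusted p = 0.0552). *Maff*, a small partner of NRF2 and BACH1, fell in both (-0.58 ± 0.14 and -0.53 ± 0.14, adjusted p = 0.0119 and 0.0191). *Nfe2l1*, a relative of NRF2, completes the genes that rose in CD11c- cells (0.54, adjusted p = 0.0274) and *Mafg* those that fell in CD11c+ cells (-0.45, adjusted p = 0.0178).

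In the glutathione list 5 of 16 tested genes rose in CD11c- cells, and 4 rose and 1 fell in CD11c+ cells. The shares were 31.2% higher in CD11c- cells, and 25% higher and 6.25% lower in CD11c+ cells. Over all tested genes they were 5.32%, and 6.29% and 4.59%. *Slc7a11*, the cystine importer, rose from 351 ± 69.5 to 759.7 ± 176 CPM (log2 1.12 ± 0.18, adjusted p = 5.12e-04) and from 684 ± 119 to 1138 ± 177 CPM (0.73 ± 0.18, adjusted p = 0.011). *Gss*, glutathione synthetase, rose by 1.19 ± 0.29 and 1.78 ± 0.28 on the log2 scale. *Gsr*, glutathione reductase, rose by 1.07 ± 0.18 and 0.72 ± 0.18, and the exporter *Abcc1* by 0.98 ± 0.14 and 0.84 ± 0.14. *Gclc*, the catalytic partner of *Gclm*, did not pass the test, at 322 ± 20.7 and 306 ± 58.3 CPM in CD11c- cells (-0.07 ± 0.19, adjusted p = 0.878) and 374 ± 54.5 and 529 ± 173 CPM in CD11c+ cells (0.50 ± 0.19, adjusted p = 0.107). *Slc3a2*, the partner chain of *Slc7a11*, also rose in CD11c- cells (0.60, adjusted p = 0.00497), and the gene that fell in CD11c+ cells was *Gpx1*, glutathione peroxidase 1 (-0.89, adjusted p = 0.00135).

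In the thioredoxin list 5 of 14 genes rose in each subset and the others did not pass the test. This is 35.7% of the list, against 5.32% of all tested genes in CD11c- and 6.29% in CD11c+ cells. *Prdx1*, an abundant peroxiredoxin, rose from 1929 ± 200 to 4447 ± 948 CPM in CD11c- cells (log2 1.20 ± 0.16) and from 1592 ± 203 to 4017 ± 938 CPM in CD11c+ cells (1.34 ± 0.17). *Prdx6* rose by 2.17 ± 0.24 and 1.67 ± 0.24, and *Txn1*, the substrate of thioredoxin reductase, by 1.10 ± 0.15 and 0.74 ± 0.15, beside the *Txnrd1* differences below 0 given earlier. *Sesn3*, a sestrin, rose in CD11c- cells (1.28 ± 0.36, adjusted p = 0.0283) and was at 0.02 ± 0.33 in CD11c+ cells. Its CD11c- libraries held few counts, 25, 26 and 16 in controls and 51, 124 and 59 after CGRP (7.76, 7.45 and 7.16, then 13.5, 30.1 and 11.1 CPM). *Prdx5* rose in both (0.92 and 0.77, adjusted p = 5.95e-04 and 0.00145), and *Txnip*, the thioredoxin inhibitor, rose in CD11c+ cells (0.67, adjusted p = 0.0102) and was at -0.05 in CD11c- cells.

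In the list of NADPH and detoxification enzymes 5 of 18 tested genes rose and 1 fell in CD11c- cells, and 8 rose and 2 fell in CD11c+ cells. The shares were 27.8% higher and 5.56% lower in CD11c- cells, against 5.32% and 3.89% of all tested genes. In CD11c+ cells they were 44.4% and 11.1%, against 6.29% and 4.59%. *Me1*, the cytosolic malic enzyme that makes NADPH, rose from 3.19 ± 1.93 to 19.9 ± 3.30 CPM (log2 2.70 ± 0.44, adjusted p = 5.06e-04) and from 3.11 ± 0.838 to 14.6 ± 5.52 CPM (2.24 ± 0.43, adjusted p = 0.00153). *Akr1b8*, an aldo-keto reductase with close paralogs, rose by 1.93 ± 0.22 and 2.07 ± 0.24. *Sod3*, extracellular superoxide dismutase, rose in CD11c+ cells (1.55 ± 0.26, adjusted p = 3.65e-04) and was at 0.19 ± 0.35 in CD11c- cells, and *Ugdh*, which makes UDP-glucuronate, rose in CD11c+ cells (1.38 ± 0.26, adjusted p = 0.00145) and was at 0.56 ± 0.27 in CD11c- cells (adjusted p = 0.226). Of the pentose phosphate enzymes, *Taldo1* rose by 1.36 and 1.01 and *Pgd* by 0.72 and 0.75 on the log2 scale, and *Cat*, catalase, rose by 0.94 and 1.20. *Sod2*, mitochondrial superoxide dismutase, completes the genes that rose in CD11c+ cells (0.85, adjusted p = 0.00155) and was at 0.48 in CD11c- cells (adjusted p = 0.0739). The genes that fell were *Ephx1*, an epoxide hydrolase, in both subsets (-0.68 and -0.93, adjusted p = 0.0384 and 0.00437) and *Nqo2*, a relative of *Nqo1*, in CD11c+ cells (-1.79, adjusted p = 0.0318, mean of 4.51 CPM over the 12 libraries).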

How the data were processed

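Per the study's methods, the authors trimmed reads with Trim Galore, checked them with FastQC, aligned them to mm10 with HISAT2 and counted them with featureCounts, and they deposited raw read counts per gene symbol, one file a library. Which versions, which annotation and which strand option they counted with is not given in the sources used here. A combined table repeats the 12 libraries exactly. Its 6 further columns match no sample label and were not used.

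From the deposited counts, genes were kept with filterByExpr by group (minimum count 10, minimum total 15), leaving 11927. All 12 libraries, scaled by TMM, were fitted together with a mean per group by the quasi-likelihood method of edgeR 4.0.16 (R 4.3.3), which gave 5 contrasts, tested two-sided with Benjamini-Hochberg adjustment over all tested genes and a threshold of 0.05. Where no tool is named, an adjusted p comes from this fit. Alternatives used limma 3.58.1, DESeq2 1.42.0 and sva 3.50.0. With 2127191 to 5649698 counts a library, a floor of 3 counts corresponds to 0.531 to 1.41 CPM and covers counting error only. The sources used here do not say whether PCR copies were removed.

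Members and lists were chosen with earlier results of these data known. From each list the text names up to 4 genes past the threshold in either CGRP contrast (mean of at least 5 CPM, largest change first), and *Nfe2l2*, *Keap1*, *Bach1*, *Ireb2*, *Aco1*, *Slc7a11* and *Gclc* whatever their values. It also names every row beginning Fth or Ftl, and the 3 genes most like *Hmox1* and *Slc40a1*.

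No source says what a replicate number marks or that replicates came from separate mice, so p-values measure only the spread between these libraries. After CGRP, the 2 subsets' libraries with a shared number deviated together from their group means (correlations of 0.332, 0.128 and 0.205 over 5411 genes), so pairing by number was accepted there. Elsewhere at least 1 of the 3 correlations was under 0.1. Even so, CD11c+ control and CGRP libraries with a shared number, which differ in treatment, reached 0.187 and 0.115. Values near these do not by themselves show a shared explant.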

Additional observations from a re-analysis of the deposited data

How the results depend on the processing

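Each result was refitted with 9 or 10 alternative settings, depending on the contrast, and without each library in turn. The count of members called stayed within 6 to 8 in CD11c- cells and 5 to 7 in CD11c+ cells, at 0 for the interaction, and within 3 to 6 between subsets at either treatment. With the replicate block the counts were 8, 7, 0, 5 and 6 for the CGRP contrast in CD11c- and CD11c+ cells, the interaction, and the subsets in control and in CGRP libraries. With treatment and replicate number together as the replicate block they were 0, 6 and 6 for the last 3. Both blocks added *Fth1* among controls (adjusted p = 0.0328 and 0.00683) and the second block also *Txnrd1* (0.0233), although the control libraries did not pair by number. Neither block lost a member's call. The number of all genes called also changed between fits and is not given for each.

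The fit without 4 libraries was chosen after seeing the marker levels. In it the sign of the difference turned for *Slc40a1* (-0.13) and *Nqo1* (-0.19) in the interaction, and for *Blvrb* between subsets after CGRP (-0.08). *Txnrd1* in the interaction was at -0.08 there, and ranged from -0.05 to 0.17 without single libraries. *Gclm* between subsets in controls was at 0.01 there, 0.07 with every gene of at least 1 count, 0.01 with at least 10 counts in every library, and 0.07 with 1 surrogate variable, and *Ftl1* was at 0.03 with at least 1 count and 0.07 with the surrogate variable. Without single libraries these ranged from -0.08 to 0.13 for *Gclm*, -0.16 to 0.11 for *Ftl1*, -0.10 to 0.23 for *Blvrb* after CGRP and -0.05 to 0.13 for *Srxn1* with CGRP in CD11c- cells. None of these differences was past the threshold in any fit, and the cause was not tested. *Nqo1* could not be tested when at least 10 counts were asked of every library. The number of further iron and haem genes called ranged from 3 to 7 in CD11c- and 3 to 9 in CD11c+ cells, and that of NRF2 pathway genes from 16 to 25 and 14 to 24.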
